A study of Mus musculus with 2 samples.

Results

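Hsd11b1, Nr3c1, Fkbp5, Tsc22d3, Per1, Zbtb16 and Dusp1 are genes that activate glucocorticoid hormone, receive it or respond to it. These 7 genes were picked by name out of the 31054 genes counted in single cells of mouse gonadal white adipose tissue (gWAT). Earlier results of these data were known when the genes were chosen. Their levels are described by library and by cell class. Mesothelial cells were defined by at least 10 unique molecular identifiers (UMIs) summed over Msln, Upk3b, Krt19, Lrrn4 and Upk1b, which mark the serosal lining of the fat pad. Stromal cells were defined by fewer than 5 such UMIs.

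Glucocorticoids act in a cell in successive steps. Hsd11b1 encodes the reductase in the endoplasmic reticulum that regenerates active corticosterone from its inactive keto form, so that a cell with the enzyme can raise its own hormone level. The hormone binds the glucocorticoid receptor, encoded by Nr3c1, which waits in the cytoplasm in a complex with Hsp90 chaperones, moves to the nucleus and binds glucocorticoid response elements. Fkbp5, Tsc22d3, Per1, Zbtb16 and Dusp1 are among the genes that the bound receptor is known to induce in many tissues. In adipose tissue, glucocorticoids promote the differentiation of progenitors into adipocytes and restrain inflammation, and Hsd11b1 is known for its expression in adipose stromal cells and adipocytes.

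The cells came from gWAT of 18-month-old male p16-CreERT2/R26-LSL-tdTomato mice, treated with tamoxifen before they were killed. In these mice the p16 promoter drives a tamoxifen-dependent Cre, which switches on tdTomato for good, so that a Tom+ cell is one with enough Cre at the time of tamoxifen and not necessarily one with p16 RNA at the time of the sort. Both groups shared the genotype, the tamoxifen and the gate (CD31- CD45-), and differed in tdTomato fluorescence. One droplet library was made of Tom+ cells and one of Tom- cells, the number of mice behind each is not given, and the comparison asks how p16-high progenitors differ from p16-low ones. With 1 library per group there is no replicate error and no test, and the sort and the preparation cannot be told apart. All intervals are at 95% and cover counting error only: those of levels are exact Poisson limits, and those of shares and ratios were taken from the binomial (Clopper-Pearson, exact).

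The cells used had over 1000 genes, under 7000 genes and under 8% of UMIs from mitochondrial genes. They numbered 3524 of 5566 barcodes in the Tom+ library and 6717 of 11838 in the Tom- library. Stromal cells made up 3263 and 4800 of them (median 14235 and 11270 UMIs per cell), mesothelial cells 250 and 1887 (18601.5 and 14753 UMIs), and 11 and 30 cells lay between the limits. Levels are in CPM, the UMIs of a gene per 1000000 UMIs summed over the cells of a class in a library. Since 3′ UMI counts are not scaled to length or capture, levels are compared between cells and not between genes. The reporter RNA matched the sort, with tdTomato at 211 CPM in the Tom+ against 13.1 CPM in the Tom- stromal cells. RNA of Cdkn2a, the gene of p16, did not, at 4.66 CPM (4.08 to 5.29) in the Tom+ against 5.79 CPM (5.18 to 6.44) in the Tom- stromal cells. The 5 mesothelial genes summed to 4844 (Tom+) and 4796 CPM (Tom-) in mesothelial cells, against 6.63 and 27.3 CPM in stromal cells. These genes defined the classes, so this contrast was set by the rule and does not check them. The 8 stromal progenitor markers summed to 29967 and 31304 CPM in stromal cells, but also to 13774 and 15419 CPM in mesothelial cells. Dcn made 9987 and 11318 CPM of the mesothelial sums, and RNA carried over from stromal cells was not separated from expression. Of the other cell types, 5 endothelial markers summed to 10.5 and 14.9 CPM in Tom+ and Tom- stromal cells, 5 leukocyte markers to 41.3 and 31.2, 5 mural markers to 67.1 and 40.8, 4 adipocyte markers to 3.74 and 5.18 (Lep was at 0 in Tom+ cells) and 4 glial markers to 3.70 and 2.64 (Sox10 was at 0 in Tom+ cells). The 6 B and plasma cell markers stood apart, at 59941 CPM in the Tom+ against 14492 CPM in the Tom- stromal cells. Mesothelial cells held 665 and 222 CPM of these B and plasma cell markers, 143 and 92.8 CPM of the endothelial, 47.9 and 2.84 of the leukocyte, 20.3 and 11.8 of the mural, 0.376 and 1.05 of the adipocyte and 2.07 and 1.45 of the glial markers. Cdh5, Ms4a1, Plin1, Cidec, Lep and Sox10 were at 0 in Tom+ mesothelial cells. The libraries also shared 2224 barcodes, of which 9 passed quality control in both. Cells with a barcode listed in the other library made up 404 of the Tom+ and 75 of the Tom- stromal cells, and 100 of the 250 Tom+ and 207 of the 1887 Tom- mesothelial cells. The main results include these cells, and only some ratios, those of Hsd11b1 among them, are also given without them.

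The stretches before the start sites of 4 of the genes are shown because the response genes differ there in the elements they hold, and because Dusp1 and Per1 answer to signals other than glucocorticoids. RefSeq promoters (assembly GRCm38.p6) were given for 5 of the 7 genes and searched on both strands for the full glucocorticoid element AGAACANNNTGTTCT, for its single arm AGAACA, for the cyclic AMP element TGACGTCA, for the core TGACG that lies inside it, and for the E-box CACGTG, the element bound by clock factors. Capitals mark these matches, and only bases outside the gene's annotated exons are printed, each 5′ to 3′ on the strand of the gene.
Dusp1 (chr17:26508520-26508722, minus strand): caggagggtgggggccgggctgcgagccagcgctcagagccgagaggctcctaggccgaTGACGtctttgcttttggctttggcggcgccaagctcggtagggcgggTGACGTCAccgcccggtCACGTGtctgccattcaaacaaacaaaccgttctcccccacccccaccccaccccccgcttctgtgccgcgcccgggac
Per1, first promoter (chr11:69098699-69098947, plus strand): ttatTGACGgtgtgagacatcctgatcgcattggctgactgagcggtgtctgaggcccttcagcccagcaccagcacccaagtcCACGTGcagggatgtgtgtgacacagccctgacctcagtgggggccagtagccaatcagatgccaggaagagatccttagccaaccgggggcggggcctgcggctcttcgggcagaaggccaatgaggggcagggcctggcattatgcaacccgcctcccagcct
Per1, second promoter (chr11:69099902-69100151, plus strand): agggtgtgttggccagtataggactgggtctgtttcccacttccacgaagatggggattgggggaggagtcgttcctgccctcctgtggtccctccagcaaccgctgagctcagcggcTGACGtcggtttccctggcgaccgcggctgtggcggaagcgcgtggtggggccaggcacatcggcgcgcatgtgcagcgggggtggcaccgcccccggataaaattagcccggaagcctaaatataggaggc
Fkbp5 (chr17:28486150-28486399, minus strand): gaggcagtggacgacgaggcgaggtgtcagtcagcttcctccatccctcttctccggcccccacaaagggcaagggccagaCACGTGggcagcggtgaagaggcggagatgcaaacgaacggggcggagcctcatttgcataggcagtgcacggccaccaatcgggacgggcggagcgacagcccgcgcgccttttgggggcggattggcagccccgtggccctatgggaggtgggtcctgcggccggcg
Tsc22d3, second promoter (chrX:140600660-140600772, minus strand): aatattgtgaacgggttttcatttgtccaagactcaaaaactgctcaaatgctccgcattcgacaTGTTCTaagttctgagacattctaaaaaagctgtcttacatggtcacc

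The Dusp1 stretch held a whole cyclic AMP element 143 bases before the start, a further core TGACG 191 bases before it and an E-box at 126 bases. Per1 held the core at 246 bases and an E-box at 166 bases before its first start, and the core again 132 bases before its second. Fkbp5 had an E-box at 169 bases, and Tsc22d3 had the arm of the glucocorticoid element, read TGTTCT on this strand, 185 bases before its second start. A further Tsc22d3 promoter held the core at 224 bases, and the last of its promoters and that of Hsd11b1 held no match. None of these windows held the full glucocorticoid element, which 0.00913% of 32851 promoters of this length held. The cyclic AMP element was in 1.79% of all promoters, its core in 20.8%, the glucocorticoid arm in 19.0% and the E-box in 7.15%. These matches describe the letters only.

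All 7 genes are protein coding. In GENCODE on mm10, Hsd11b1 lies on chromosome 1 from 193221634 to 193264075, Nr3c1 on chromosome 18 from 39410545 to 39519421, Fkbp5 on chromosome 17 from 28399094 to 28517527, Tsc22d3 on chromosome X from 140539528 to 140600659, Per1 on chromosome 11 from 69095217 to 69109960, Zbtb16 on chromosome 9 from 48654297 to 48836222 and Dusp1 on chromosome 17 from 26505590 to 26562128. Gene models overlap Hsd11b1 (Gm38118 on its strand), Fkbp5 (AC154912.3 and AC154912.5) and Dusp1 (AC122252.1 and AC122252.4) on the same strand, and reads in such an overlap can be left uncounted.

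Between the stromal cells of the libraries, the enzyme that activates the hormone stood apart from the receptor and the response genes. Hsd11b1 was 2.33-fold lower in Tom+ than in Tom- stromal cells, while none of the other 6 genes differed by more than 1.18-fold. Of the 7 genes, 1 was lower and 0 were higher by at least 1.5-fold. Of all 9778 genes whose mean reached 5 CPM, 3.25% were lower and 3.86% higher by this fold. The median log2 ratio of the 7 was -0.056 and that of all these genes 0.071. By sign, 3 of the 7 were higher and 4 lower in Tom+ cells.

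Tom+ stromal cells held 5637 UMIs of Hsd11b1, or 110.3 CPM (107.4 to 113.2), and Tom- stromal cells held 14907, or 257.5 CPM (253.4 to 261.7). On the log2 scale this is a ratio of -1.22 (-1.27 to -1.18), which ranks at percentile 0.491 among all genes compared. The difference was in how many cells held the transcript and in how many copies. With each cell thinned to 7563 UMIs, a Hsd11b1 UMI was found in 37.5% (35.7 to 39.2) of Tom+ and 58.7% (57.2 to 60.2) of Tom- stromal cells, and cells with a UMI held 2.49 and 3.66 UMIs on average. Without thinning the shares were 48.4% and 64.0%. Thinning left out 271 Tom+ and 647 Tom- stromal cells that were shallower. For comparison, 2.02% (0.66 to 4.66) of Tom+ and 4.98% of Tom- mesothelial cells, a class nearly without the gene, held a UMI after thinning. The distribution was long-tailed in both libraries: the 5% of cells with the most UMIs of Hsd11b1 held 37.6% of them in Tom+ and 27.4% in Tom- stromal cells, with up to 35 and 74 UMIs in a cell, and 11.5% and 24.8% of cells held 5 or more.

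**Figure D1:**
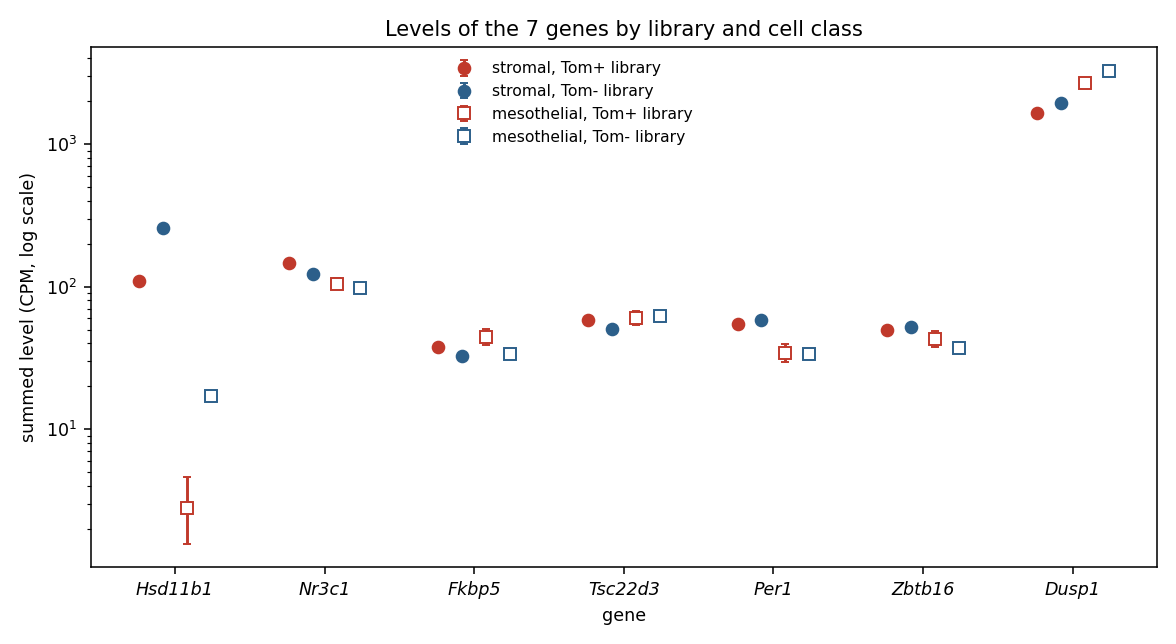
Summed level (CPM, log scale) of each of the 7 genes in stromal cells (filled circles) and mesothelial cells (open squares) of the Tom+ (red) and Tom- (blue) libraries; bars are exact Poisson 95% intervals, often smaller than the symbol. Hsd11b1 spans from 2.82 CPM in Tom+ mesothelial cells to 257.5 CPM in Tom- stromal cells, while for each other gene the 4 groups lie close together.

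Nr3c1, the receptor, had 145.5 CPM (142.2 to 148.8) in the Tom+ stromal cells against 123.4 CPM (120.6 to 126.3) in the Tom- ones. It was thus slightly higher where the activating enzyme was lower, with a log2 ratio of 0.24 (0.19 to 0.28) at percentile 73.3. Its thinned share of cells was 65.0% (63.2 to 66.7) in Tom+ and 57.2% (55.6 to 58.7) in Tom- stromal cells, 81.3% and 69.8% without thinning. Unlike Hsd11b1, it was spread evenly: the 5% of cells with the most Nr3c1 UMIs held 16.5% and 19.1% of them.

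Among the response genes, Fkbp5 encodes an Hsp90 co-chaperone that lowers the receptor's affinity for hormone and is part of its negative feedback. Its level was 37.6 CPM (36.0 to 39.4) in the Tom+ against 32.5 CPM (31.1 to 34.0) in the Tom- stromal cells, 0.21 higher on the log2 scale (0.12 to 0.30). Tsc22d3 encodes GILZ, a leucine zipper protein that carries part of the anti-inflammatory action of glucocorticoids. Its level was 58.6 CPM (56.5 to 60.7) against 50.2 CPM (48.4 to 52.1), 0.22 higher on the log2 scale (0.15 to 0.30). Both lay on the same side as Nr3c1, at percentiles 70.1 and 71.3 of all genes.

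The other response genes were equal or lower in Tom+ stromal cells. Per1, a repressor in the circadian clock that hormone and cyclic AMP induce within the hour, had 55.1 CPM (53.1 to 57.2) in the Tom+ against 58.7 CPM (56.7 to 60.7) in the Tom- stromal cells, with a log2 ratio at -0.09 (-0.16 to -0.017). Zbtb16, a zinc finger transcription factor also known as PLZF, had 49.9 CPM (48.0 to 51.9) against 51.9 CPM (50.0 to 53.8), and the interval around its log2 ratio of -0.056 ran from -0.13 to 0.021. Dusp1, a phosphatase that switches off the p38 and JNK kinases, had 1661 CPM (1650 to 1672) against 1937 CPM (1926 to 1949), with a log2 ratio at -0.22 (-0.24 to -0.21) and percentile 14.6. It was found in nearly every cell, with a thinned share of 95.2% in Tom+ and 95.4% in Tom- stromal cells. Thinned shares of the remaining genes were 24.3% and 21.6% for Fkbp5, 30.5% and 26.6% for Tsc22d3, 32.5% and 34.1% for Per1, and 32.3% and 33.0% for Zbtb16, Tom+ before Tom-. Without thinning Per1 and Zbtb16 stood in the other order, at 49.0% against 43.8% and 47.8% against 41.6% of the deeper Tom+ and the shallower Tom- cells.

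**Figure D2:**
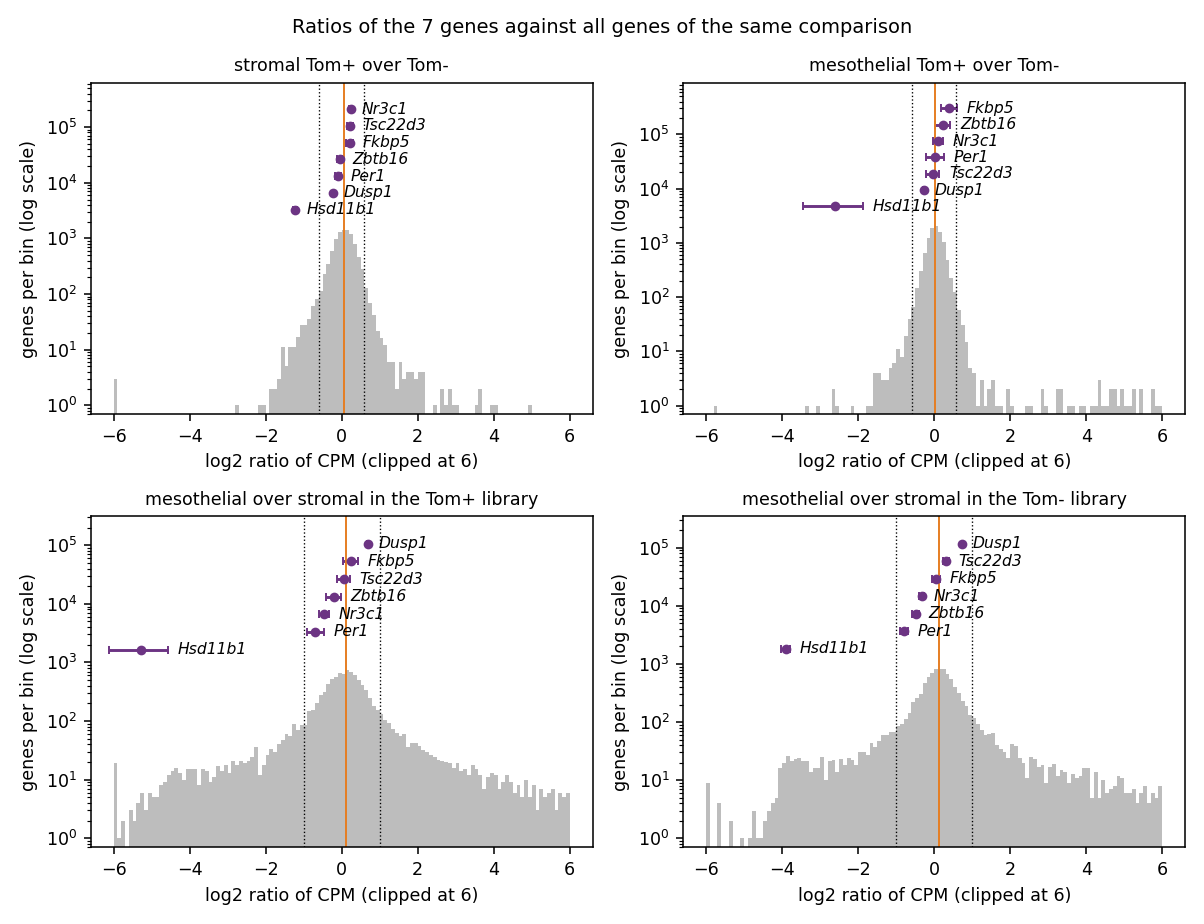
Log2 ratio of CPM on the x axis for all genes whose mean reached 5 CPM (grey, genes per bin of the ratio on a log axis; ratios past 6 are placed at 6) and for the 7 genes (purple points, spread vertically for legibility, with 95% counting intervals) in the 4 comparisons. The orange line is the median of all genes and the dotted lines mark the fold limit. Hsd11b1 is the 1 gene of the 7 outside the dotted lines in each panel.

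The 2.33-fold difference of Hsd11b1 moved most with the weight given to the stromal clusters, which were made without correction between libraries. The part of cell makeup in it was not tested. Over 13 alternatives its log2 ratio ran from -1.30 to -0.59, and the smallest difference came when each stromal cluster was given the same weight (118 CPM in the Tom+ against 178 CPM in the Tom- cells). It was -1.09 without the barcodes listed in both libraries, -1.02 without cells that held at least 10 UMIs of the B and plasma cell markers, and -1.16 with the immunoglobulin genes left out of the total. Immunoglobulin genes took 6.06% of the UMIs of Tom+ and 1.59% of those of Tom- stromal cells. Leaving them out of the total also moved the other genes in the stromal comparison. The median log2 ratio of the genes picked by name went from -0.056 to 0.011, and that of all genes from 0.071 to 0.14.

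In mesothelial cells the same gene was again the one that stood apart. Of the 7 genes, 1 (Hsd11b1) was lower and 0 were higher by at least 1.5-fold in Tom+ than in Tom- mesothelial cells, where 1.16% of 10014 genes were lower and 1.87% higher. The median log2 ratio of the 7 was 0.020 beside 0.032 for all genes. The 15 UMIs of Hsd11b1 in Tom+ mesothelial cells made 2.82 CPM (1.58 to 4.65), and the 554 UMIs in Tom- mesothelial cells made 17.1 CPM (15.7 to 18.6), which puts the log2 ratio at -2.60 (-3.45 to -1.87). Few cells carried it: a UMI was found in 8 of 250 Tom+ cells, and in the Tom- library 1.85% of mesothelial cells held 5 or more UMIs and the top 5% of cells held 83.2% of them. Without the cells that the doublet caller Scrublet marked, the levels were 2.08 and 6.24 CPM and the log2 ratio -1.58. Without the barcodes shared between libraries they were 1.35 and 15.6 CPM and the log2 ratio -3.53. Scrublet marked 2 of 3524 Tom+ cells, a share of 0.0568%, and 122 of 6717 Tom- cells, and how many doublets it missed was not tested. RNA carried over from the stromal cells of the same library was not separated from expression in these mesothelial levels.

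The receptor and the response genes were at similar levels in the mesothelial cells of both libraries. Nr3c1 had 105.2 CPM (96.7 to 114.3) in the Tom+ against 98.004 CPM (94.6 to 101.5) in the Tom- cells, Tsc22d3 had 60.7 CPM (54.2 to 67.7) against 62.2 CPM (59.5 to 64.9), and Per1 had 34.2 CPM (29.4 to 39.5) against 33.7 CPM (31.7 to 35.8). For these 3 genes the interval of the log2 ratio spanned 0. The 2 libraries were further apart for Fkbp5, with 44.3 CPM (38.9 to 50.4) against 33.7 CPM (31.7 to 35.8), and its log2 ratio of 0.39 (0.19 to 0.60), at percentile 94.6, was the highest of the 7. Zbtb16 had 43.0 CPM (37.6 to 49.0) against 36.9 CPM (34.8 to 39.1), 0.22 higher on the log2 scale (0.011 to 0.43). Dusp1 had 2689 CPM (2645 to 2734) against 3231 CPM (3211 to 3251), with a log2 ratio at -0.26 (-0.29 to -0.24), so it was lower in Tom+ cells of both classes by a similar size.

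Between the classes, stromal cells held nearly all of the Hsd11b1 RNA. The gene was 39.1-fold lower in mesothelial than in stromal cells of the Tom+ library and 15.0-fold lower in the Tom- library, log2 ratios of -5.29 (-6.13 to -4.57) and -3.91 (-4.04 to -3.79). In each library 1 of the 7 genes was lower and 0 were higher by at least 2-fold. All genes past this limit made up 10.1% (lower) and 13.1% (higher) of 10240 in the Tom+ library, and 9.22% and 11.9% of 10019 in the Tom- library. The level of Hsd11b1 in mesothelial cells was 2.55% of that in Tom+ stromal cells and 6.65% of that in Tom- stromal cells. For Lum, a proteoglycan gene of fibroblasts, the same shares were 3.87% and 8.83%, for Pdgfrb 7.90% and 10.5% and for Pdgfra 12.2% and 18.2%. The remaining stromal markers ranged widely: Ly6a 15.3% and 15.1%, Col1a1 30.0% and 40.6%, Col3a1 40.7% and 66.1%, Dcn 54.0% and 50.8%. Cd34 was higher in mesothelial cells, at 148% and 143%. Hsd11b1 in mesothelial cells was therefore lower, relative to stromal cells, than each of the 8 stromal markers. RNA carried over from stromal cells was not separated from expression. Without the cells marked by Scrublet the Tom- log2 ratio was -5.37, and without the shared barcodes the Tom+ log2 ratio was -6.51.

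The other genes were expressed in both classes. Dusp1 was the gene of the 7 with the highest ratio, 1.62-fold higher in mesothelial cells of the Tom+ library and 1.67-fold higher in those of the Tom- library (log2 0.70 and 0.74). Per1 was lower in mesothelial cells, with log2 ratios of -0.69 (-0.91 to -0.47) and -0.80 (-0.90 to -0.70), and so were Nr3c1, with -0.47 and -0.33, and Zbtb16, with -0.21 and -0.49. Tsc22d3 was at log2 0.05 (-0.12 to 0.22) and 0.31 (0.22 to 0.39), and Fkbp5 at 0.24 (0.035 to 0.43) and 0.05 (-0.056 to 0.16), so neither lay off 0 in both libraries. The sign of Tsc22d3 in the Tom+ library, and that of Fkbp5 in each library, turned under some alternatives: Tsc22d3 to -0.11 and Fkbp5 in the Tom- library to -0.10 with size factors in place of total UMIs, and Fkbp5 in the Tom+ library to -0.025 without the shared barcodes. The median log2 ratio of the 7 was -0.21 and -0.33, beside 0.11 and 0.14 for all genes, and size factors brought the median of all genes to -0.047 and -0.020.

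Stromal cells were then clustered without the 7 genes and without any gene of the lists below, and 9 clusters were called by their leading genes. With 1 library per group, a cluster mostly of 1 library may be that library and not a kind of cell. The clusters led by Scg3 (cluster 1, 1465 cells, 82.9% Tom+) and by Gm13305, Ptgds and Pi15 (cluster 2, 474 cells, 70.7% Tom+) were mostly of Tom+ cells. Cluster 6, led by Efhd1 and with Pi16 among its leading genes (1450 cells, 46.3% Tom+), was mixed. Those led by Vtn, Aspa and G0s2 (cluster 7, 2205 cells, 23.6% Tom+) and by Cpxm2 and Adamts9, with Il6 among the leading genes (cluster 8, 1932 cells, 15.3% Tom+), were mostly of Tom- cells. Cluster 3 was led by Igkc and other immunoglobulin genes (223 cells, median 36769 UMIs), cluster 4 by the mast cell protease Mcpt4 (27 cells) and cluster 5 by Ccl5 and Cd3 genes (41 cells). Cluster 9 was led by Ccl21a, with Ncam1, Calca and Cldn5 among its leading genes (246 cells, 14.2% Tom+). It held 23837 CPM of the 8 stromal progenitor markers, against 26930 CPM in cluster 6, and 269 CPM of the 5 endothelial markers. Cells of clusters 3, 4, 5 and 9 met the rule for stromal cells, which asks only for few mesothelial UMIs. In cluster 3 the 6 B and plasma cell markers summed to 492719 CPM, which lowers the CPM of every other gene there. The part of this in the levels and ratios of cluster 3 was not tested.

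Hsd11b1 varied widely between clusters. It was highest in cluster 7, at 350.7 CPM over both libraries, and next in cluster 8, at 287.2 CPM. Cluster 1 had 117 CPM (Tom+) and 170 CPM (Tom-), and cluster 5 had 157 CPM (47 UMIs) and 97.1 CPM (20 UMIs). Clusters 2, 3 and 6 lay between 43.7 and 72.01 CPM in either library, and cluster 9, the cluster with the lowest share of Tom+ cells, had 34.3 and 41.2 CPM. The level of Hsd11b1 thus did not follow the share of Tom+ cells throughout. The lowest level was in the Mcpt4-led cluster, at 16.8 CPM from 3 UMIs.

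Within the clusters that could be compared, at this resolution, Hsd11b1 was lower in Tom+ cells, by less than over all stromal cells. In cluster 7 the Tom+ cells held 218 CPM (208 to 230) and the Tom- cells 398 CPM (389 to 407), with a log2 ratio at -0.87 (-0.95 to -0.79). In cluster 8 they held 226 CPM (211 to 242) and 299 CPM (291 to 307), with a log2 ratio at -0.40 (-0.51 to -0.29). The log2 ratio was -0.53 in cluster 1, -0.51 in cluster 2, -0.31 in cluster 3 and -0.58 in cluster 6, so that it was below 0 with its interval in 6 of the 6 clusters with at least 50 cells of each library. With 12 clusters in place of 9, it was below 0 in 7 of 8, the exception being the Igkc-led cluster at 0.03 (-0.29 to 0.35), and ran down to -1.64 (-1.76 to -1.52) in a Myh11-led cluster of 1476 cells, a larger difference than over all stromal cells. Whether the cells of a cluster differ in kind between the libraries was not tested.

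**Figure D3:**
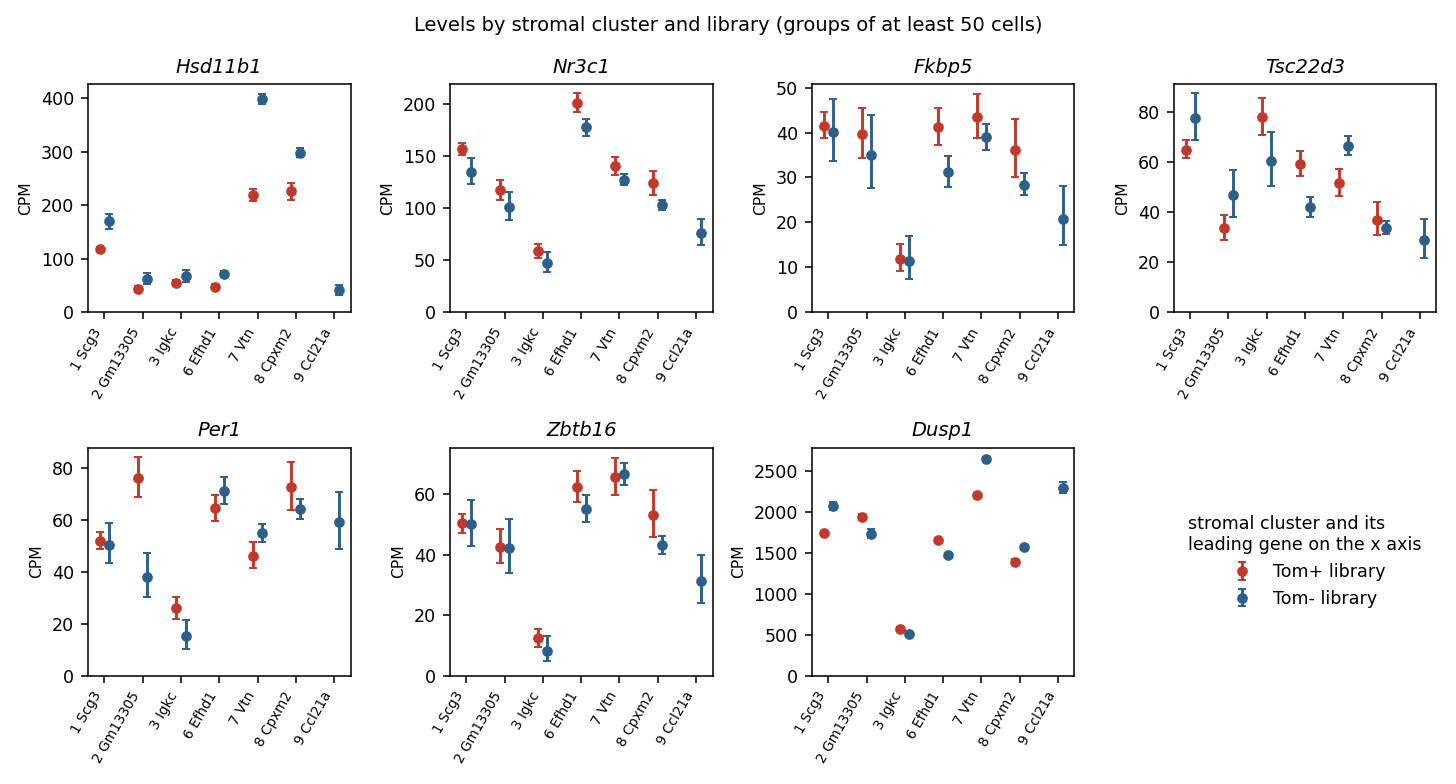
Level (CPM) of each gene in each stromal cluster, named by its number and leading gene, in Tom+ (red) and Tom- (blue) cells with exact Poisson 95% intervals, for groups of at least 50 cells. Hsd11b1 reaches 398 CPM in Tom- cells of cluster 7, and the Igkc-led cluster 3 lies lowest for Nr3c1, Fkbp5, Per1, Zbtb16 and Dusp1. In cluster 3 the 6 B and plasma cell markers sum to 492719 CPM, which lowers the CPM of all other genes.

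Nr3c1 followed another order of clusters. It was highest in cluster 5, led by Ccl5 and Cd3 genes, at 255.8 CPM from 129 UMIs, then in cluster 6 at 188.6 CPM, and lowest in the Igkc-led cluster 3 at 55.6 CPM. Within clusters it was higher in Tom+ cells in 6 of 6, and in 4 of them with an interval off 0. The log2 ratios ran from 0.14 (0.029 to 0.25) in cluster 7 to 0.30 (-0.028 to 0.64) in cluster 3, around the ratio over all stromal cells. At 12 clusters it was higher in Tom+ cells in 8 of 8.

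Fkbp5 varied little between the larger clusters, from 28.4 to 43.5 CPM in either library of clusters 1, 2, 6, 7 and 8, and was at 11.95 and 11.4 CPM in cluster 3. It was higher in Tom+ cells in 6 of 6 clusters, 2 of them with an interval off 0 (log2 0.41 in cluster 6 and 0.35 in cluster 8), and at 12 clusters in 7 of 8. Tsc22d3 had no single direction. It was higher in Tom+ cells of clusters 6 (59.2 against 42.0 CPM) and 3 (78.1 against 60.4 CPM), and lower in those of clusters 1 (65.0 against 77.8 CPM), 2 (33.5 against 46.8 CPM) and 7 (51.8 against 66.5 CPM), each with an interval off 0. Its highest level, 196 CPM, was in the Mcpt4-led cluster from 35 UMIs, followed by the Igkc-led cluster at 73.3 CPM. The clusters with the highest Tsc22d3 were thus led by genes of immune cells, while cluster 9 was lowest at 31.4 CPM.

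In cluster 2, the Tom+ cells held 76.2 CPM (68.9 to 84.1) of Per1 and the Tom- cells 37.9 CPM (30.1 to 47.1), with a log2 ratio at 1.01 (0.66 to 1.37). This was the largest difference upward of the 7 genes in these 6 clusters, and cluster 2 held 335 Tom+ and 139 Tom- cells. It depended on the clustering: at 12 clusters the highest log2 ratio of Per1 was 0.62, and that of the Myh11-led cluster, which has Pi15 among its leading genes, was 0.32 (59.3 against 47.4 CPM). In cluster 7 Per1 was lower in Tom+ cells (46.2 against 54.8 CPM). Zbtb16 was highest in cluster 5 (71.4 CPM from 36 UMIs) and cluster 7 (66.5 CPM) and lowest in cluster 3 (11.2 CPM), and was higher in Tom+ cells with an interval off 0 in clusters 6 and 8 (log2 0.18 and 0.30). Dusp1 was highest in cluster 7 at 2538 CPM and lowest in cluster 3 at 558 CPM. It was higher in Tom+ cells of clusters 2, 3 and 6 (log2 0.16, 0.18 and 0.17) and lower in those of clusters 1, 7 and 8 (log2 -0.25, -0.27 and -0.18), but at 12 clusters it was lower in 6 of 8, the Myh11-led cluster among them (log2 -0.20, -0.23 to -0.17). With the clusters weighted equally, the log2 ratios over stromal cells were -0.59 for Hsd11b1, -0.075 for Dusp1, 0.20 for Per1, 0.11 for Zbtb16 and -0.011 for Tsc22d3.

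**Figure D4:**
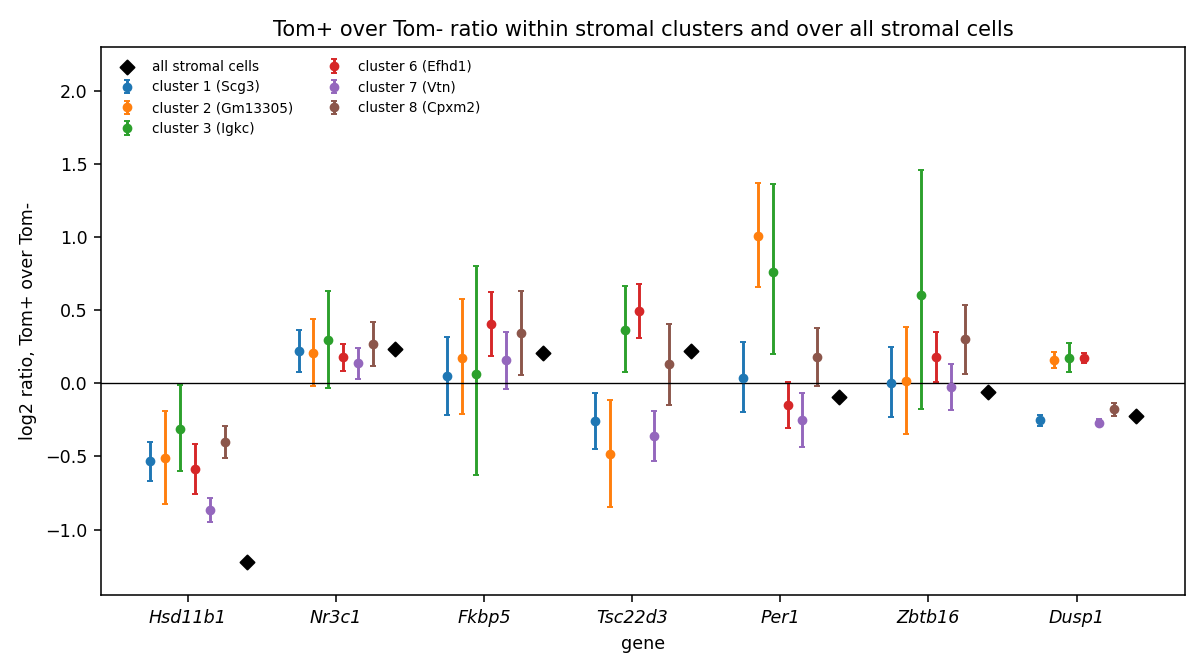
Log2 ratio of Tom+ over Tom- CPM of each gene within the 6 stromal clusters with at least 50 cells of each library (coloured points, 95% counting intervals) and over all stromal cells (black diamonds). For Hsd11b1 all 6 points are below 0 and all are above the diamond at -1.22; for Tsc22d3, Per1 and Dusp1 the points fall on both sides of 0.

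Dusp1 and Per1 are also immediate early genes, which are induced within minutes by enzymatic dissociation and other stress, and so their levels were set beside 20 other such genes (Fos, Jun, Egr1, Nr4a1, Hspa1a and others). The summed level of the 20 was 32472 CPM in the Tom+ against 39482 CPM in the Tom- stromal cells, and 30551 and 32284 CPM in mesothelial cells. In stromal cells 16 of them were lower and 4 higher in Tom+ cells, 4 of them lower by at least 1.5-fold, while 60.5% of all genes were higher and 3.25% lower by that fold. These were Socs3 (502 against 908 CPM), Ier3 (465 against 749 CPM), Hspa1a (147 against 232 CPM) and Nr4a1 (1230 against 1852 CPM). Socs3 and Hspa1a stayed past that limit in 12 of 13 alternatives, Ier3 in 9 and Nr4a1 in 4. Socs3, Ier3 and Nr4a1 were under it with clusters weighted equally, and Hspa1a was under it without the shared barcodes. Dusp1 lay on the same side as most of this list, and the part of the immediate early response in its ratio was not tested.

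Each library's stromal cells were split into 3 equal groups by the summed level of these 20 genes. Dusp1 was higher from group to group, at 1118, 1771 and 2326 CPM in Tom+ and 1221, 1978 and 2802 CPM in Tom- cells. Hsd11b1 followed the same order, at 70.3, 109 and 170 CPM in Tom+ and 138, 258 and 409 CPM in Tom- cells. The limits of the groups were set in each library on its own, so the groups are not matched in level between libraries. The clusters also differed in the summed level of the 20 genes, from 14390 CPM in cluster 3 to 44771 CPM in cluster 7. The part of the clusters in the levels and ratios by group was not tested. Inside the groups the log2 ratio of Hsd11b1 was -0.97 (-1.06 to -0.88), -1.25 (-1.32 to -1.17) and -1.26 (-1.33 to -1.20), from low to high. The ratio of Hsd11b1 was thus near that over all stromal cells in the middle and high groups, and the difference was smaller in the low group.

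Tsc22d3 was at 49.7, 53.7 and 77.2 CPM in Tom+ and 34.0, 45.1 and 76.7 CPM in Tom- cells, so that its log2 ratio went from 0.55 (0.41 to 0.69) in the low group to 0.01 (-0.11 to 0.13) in the high group. Nr3c1 took the other course, with log2 ratios of 0.04 (-0.038 to 0.12), 0.37 and 0.33. Those of Fkbp5 were 0.17, 0.18 and 0.32 and those of Dusp1 -0.13, -0.16 and -0.27. The intervals of Per1 spanned 0 in all 3 groups, and Zbtb16 was at -0.28 (-0.43 to -0.14) in the low group and near 0 in the others (0.11 and 0.01).

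**Figure D5:**
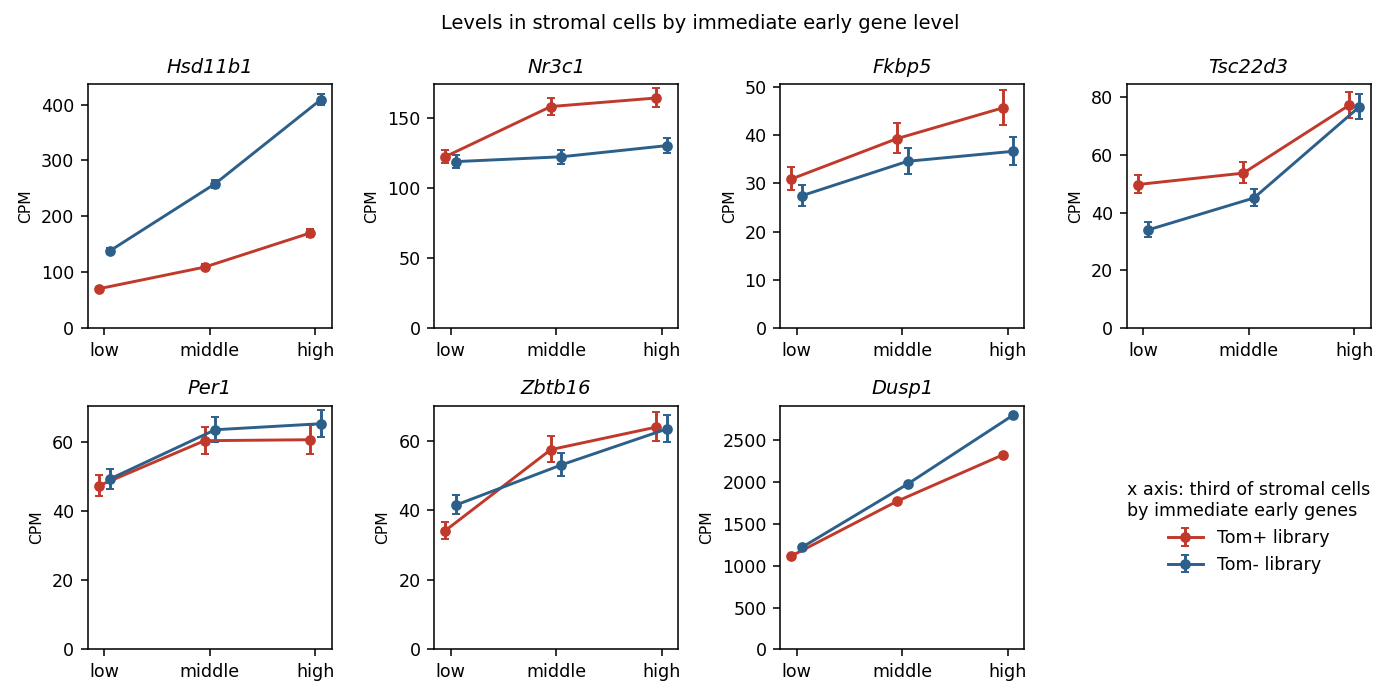
Level (CPM) of each gene in stromal cells of the Tom+ (red) and Tom- (blue) libraries, split into 3 equal groups of cells by the summed level of 20 immediate early genes within each library; bars are exact Poisson 95% intervals. Hsd11b1 goes from 138 to 409 CPM in Tom- cells and from 70.3 to 170 CPM in Tom+ cells, and the libraries meet for Tsc22d3 in the high group.

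The wider pathway was described with lists of genes, which share some members with the 7. As a measure for the counts below, 60.5% of all genes were higher in Tom+ stromal and 56.5% in Tom+ mesothelial cells. In mesothelial against stromal cells, 57.2% (Tom+ library) and 61.1% (Tom- library) of all genes were higher. Among the genes of glucocorticoid metabolism and reception, 6 of 11 reached a mean of 5 CPM in stromal cells, of which 3 were higher and 3 lower in Tom+ cells. H6pd, which supplies the NADPH that Hsd11b1 needs to work as a reductase, was at 91.0 CPM (Tom+) and 79.4 CPM (Tom-), 0.20 higher on the log2 scale (0.14 to 0.26). Hsd11b2, the enzyme of the opposite reaction, was low at 1.25 and 1.21 CPM, and the mineralocorticoid receptor gene Nr3c2, whose product also binds corticosterone, was at 5.62 and 5.30 CPM. Hsd17b6 and Serpina6, which encodes the corticosteroid-binding globulin of plasma, were at 0 in stromal cells of both libraries. The drug and steroid exporter gene Abcb1b was at 9.10 CPM in the Tom+ against 17.1 CPM in the Tom- stromal cells, lower by 1.87-fold, and with clusters weighted equally its log2 ratio of -0.91 shrank to -0.32. It and Abcb1a were far higher in mesothelial cells, Abcb1b at 222 CPM (Tom+) and 236 CPM (Tom-) and Abcb1a at 23.1 and 18.2 CPM against 0.450 and 0.847 CPM in stromal cells.

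Of 14 chaperones of the receptor, 4 were higher and 10 lower in Tom+ stromal cells, none of them by 1.5-fold, and the split turned to as many as 10 higher under an alternative. In mesothelial cells 13 of these 14 were higher than in stromal cells in each library, by a median log2 of 0.49 (Tom+) and 0.36 (Tom-). Among all genes 57.2% and 61.1% were higher, with medians of 0.11 and 0.14. Of 12 coregulators, 11 were higher and 1 lower in Tom+ stromal cells, with none past 1.5-fold. The median log2 ratio of the coregulators was 0.23, beside 0.071 for all genes, and 9 to 12 were higher over the alternatives. In mesothelial cells 11 of the 12 were also higher in the Tom+ library, with a median of 0.15 beside 0.032 for all genes and 7 to 11 higher over the alternatives. Nrip1, a corepressor of nuclear receptors, was 4.67-fold lower in mesothelial than in stromal cells of the Tom+ library (44.3 against 207 CPM) and 3.52-fold lower in those of the Tom- library (43.6 against 154 CPM).

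The anti-inflammatory target genes were mostly lower in Tom+ stromal cells. Of 10 genes over the limit of 5 CPM, 9 were lower and 1, Tsc22d3, was higher. Their median log2 ratio was -0.25 beside 0.071 for all genes, 60.5% of which were higher. With clusters weighted equally 3 of the 10 were higher and the median was -0.056. Lcn2, a siderophore-binding protein of the acute phase, was at 38.5 CPM in the Tom+ against 111 CPM in the Tom- cells, lower by 2.88-fold, and it stayed past 1.5-fold in 13 of 13 alternatives. Anxa1 was at 648 and 863 CPM, Nfkbia at 569 and 755 CPM, and Sgk1 at 814 and 1049 CPM. In mesothelial cells 7 of 9 were lower in the Tom+ library, where 56.5% of all genes were higher. Compared with stromal cells, mesothelial cells of both libraries were lower in Irak3 (14.1 and 13.3 CPM against 64.7 and 72.5 CPM), Sgk1 and Zfp36. The list as a whole was divided, with 6 of 9 (Tom+) and 5 of 9 (Tom-) higher, beside 57.2% and 61.1% of all genes.

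Of 24 metabolic and growth target genes, 7 were higher and 17 lower in Tom+ stromal cells, a split that reached 14 higher under an alternative. Among all genes 60.5% were higher. Lpin1, a phosphatidate phosphatase, was at 40.7 CPM in the Tom+ against 22.8 CPM in the Tom- cells, higher by 1.79-fold. Cebpb, a transcription factor of early adipogenesis, was at 1644 and 3019 CPM, lower by 1.84-fold, and Tiparp and the metallothionein Mt1 were lower by 1.71- and 1.68-fold. Weighted equally over clusters, none of these 4 stayed past 1.5-fold. The fifth gene past the limit was Pdk4, at 14.7 and 9.62 CPM (1.53-fold), which was under it with size factors and with clusters weighted equally. In mesothelial cells 14 of the 24 were higher in the Tom+ library, 1 of them past 1.5-fold, which was Rgs2 at 13.0 against 4.57 CPM. Compared with stromal cells, Angptl4 (58.1 and 63.9 CPM against 279 and 195 CPM), Cebpd and Cdkn1c were lower in mesothelial cells of both libraries, and Tgm2, a transglutaminase, was 11.5-fold (Tom+) and 6.89-fold (Tom-) higher.

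The circadian clock genes lay on the other side. Of 16 over the limit, 14 were higher and 2, Per1 and Npas2, lower in Tom+ stromal cells, with 12 to 15 higher over the alternatives. Their median log2 ratio was 0.20 beside 0.071 for all genes, 60.5% of which were higher. Hlf, a transcription factor at the output of the clock, was at 25.3 CPM in the Tom+ against 12.4 CPM in the Tom- cells, higher by 2.05-fold. Per3 was at 25.1 and 14.3 CPM and Per2 at 14.6 and 9.43 CPM, higher by 1.76- and 1.55-fold. The log2 ratio of their paralog Per1, -0.09, had the other sign, but it turned to 0.20 with clusters weighted equally and to 0.0036 without the shared barcodes. Hlf stayed past 1.5-fold with clusters weighted equally, and Per2 and Per3 did not. In mesothelial cells 14 of 16 were higher in the Tom+ library, none by 1.5-fold, with 8 to 15 higher over the alternatives, and 56.5% of all genes were higher. Between the classes, Nr1d1 (70.1 and 53.2 CPM against 21.1 and 16.9 CPM) and Dbp (67.6 and 61.5 CPM against 18.8 CPM in stromal cells of each library) were higher in mesothelial cells, and Cry2 was lower by 3.73- and 3.58-fold. In the Tom+ library the log2 ratio of Dbp went from 1.85 to 0.73 without cells that held immunoglobulin UMIs. The hour at which the tissues were taken is not given.

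Of the MAP kinase phosphatases, 8 of 11 were over the limit in stromal cells, with 3 higher, 5 lower and none past 1.5-fold in Tom+ cells. In mesothelial cells 2 of 8 were higher and 6 lower in the Tom+ library. Between the classes, 4 (Tom+ library) and 3 (Tom- library) of 8 were higher in mesothelial cells by at least 2-fold, and none was lower. Dusp5 and Dusp6, paralogs of Dusp1 that act on ERK, were among them. Dusp5 was higher by 10.6-fold (Tom+) and 11.1-fold (Tom-), Dusp6 by 5.68- and 4.85-fold and Dusp14 by 5.66- and 9.41-fold. Within the TSC22 family, Tsc22d4 (log2 0.31), Tsc22d3 (0.22) and Tsc22d1 (0.09) were higher and Tsc22d2 (-0.33) lower in Tom+ stromal cells, and 1 of 4 was higher in Tom+ mesothelial cells. The immediate early genes were lower in Tom+ mesothelial cells in 17 of 20, none by 1.5-fold. In both libraries Atf3 was higher and Egr2, Ier2 and Socs3 were lower by at least 2-fold in mesothelial than in stromal cells.

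Whether the response genes are found in the same cells was described in thinned stromal cells over 21 pairs in each library. For each pair, the share of cells with a UMI of one gene was taken among cells with and without a UMI of the other. These shares differed with intervals apart in 5 pairs in the Tom+ and 4 in the Tom- library. Among the 15 pairs without Dusp1, these were 3 and 2. The ranges and widest pairs that follow are of these 15 pairs. For Hsd11b1 the difference lay between -1.52 and 3.22 percentage points in Tom+ cells and between -1.88 and 6.07 points in Tom- cells, the highest being with Tsc22d3 in the Tom- library (63.1% of cells with and 57.1% without a Tsc22d3 UMI). The widest in Tom+ cells were Nr3c1 with Zbtb16 (69.4% against 62.9%) and Tsc22d3 with Per1 (26.7% against 32.4%). In Tom- cells the widest was Fkbp5 with Tsc22d3 (26.2% against 19.97%). The cells of a library share their preparation, and the part of the clusters in these shares was not tested.

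Over 15 groups (stromal clusters and mesothelial cells, by library, with at least 50 cells), the levels of Hsd11b1 on the log2(CPM + 1) scale ran most like those of Alkal2 (Pearson r 0.95), Hgf (0.94) and Abca8a (0.92). Over these groups its correlation with the other members was between -0.14 (Dusp1) and 0.34 (Per1). Nr3c1, Fkbp5 and Zbtb16 ran alike (r 0.85 between Nr3c1 and Fkbp5, 0.91 between Nr3c1 and Zbtb16 and 0.93 between Fkbp5 and Zbtb16). All 3 were low in the Igkc-led cluster, where B and plasma cell markers at 492719 CPM lower the CPM of other genes. The genes most like Nr3c1 were Osbpl5, Aida and Tns2, those most like Zbtb16 were Qk, Pla2r1 and Rbms1, and those most like Dusp1 were Ddx24, Tceal1 and Tmem109. Tbc1d9b and Abi2 were among the genes most like Fkbp5, Crbn and Whamm among those most like Tsc22d3, and Uaca and Ndel1 among those most like Per1. All these likenesses are over the 15 groups. Over the 13 stromal groups alone, Hsd11b1 ran most like Chst15 (0.88), Ncald (0.87) and Fmo1 (0.87). Its correlations with the other members then ran from 0.14 (Tsc22d3) to 0.43 (Zbtb16). The groups share 2 libraries and are not independent, so these are descriptions.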

How the data were processed

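The authors sorted the cells, made droplet libraries with a 10x Genomics 3′ kit, sequenced them on a DNBSEQ-G400RS, and deposited for each library the UMI counts that Cell Ranger 3.0.2 gave per gene and barcode on mm10. These deposited counts are whole numbers without normalization, and the lowest total of a barcode was 500 UMIs. Total counts were 61119807 (Tom+) and 96872394 (Tom-). Cells were filtered by the study's limits on genes and mitochondrial counts and classed by 5 mesothelial genes. UMIs were summed per class and library and scaled to CPM, and the log2 ratio was taken for all genes whose mean reached 5 CPM. For shares of cells, each cell was thinned at random to 7563 UMIs, the 10th percentile. Stromal cells were clustered (scikit-learn 1.9.0, igraph 0.11.9, leidenalg 0.10.2) from 2000 variable genes, 30 principal components and 20 neighbours at resolution 0.4, without correction between libraries. Doublets were called with Scrublet in scanpy 1.11.5 and removed only as an alternative.

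The 7 genes, the 9 gene lists and the markers were chosen with earlier results of these data known. Besides the 7 genes, the text names list genes past 1.5-fold between stromal libraries or past 2-fold in the same direction in both libraries between classes, at most 4 per list and comparison, and the 3 genes most like each of the 7 (some genes under these rules are not reported here); H6pd, Hsd11b2, Nr3c2, Hsd17b6, Serpina6, Anxa1, Nfkbia, Npas2, Pdk4, Rgs2, Tsc22d1, Tsc22d2 and Tsc22d4, and Sgk1 between libraries, were added after their values were seen. Alternatives covered scaling, mitochondrial and gene limits, weights of cells and clusters, depth, class limits, immunoglobulin-bearing cells, doublets, shared barcodes, Pdgfra-positive cells and the number of clusters. Leaving out the 4 clusters with Igkc, Mcpt4, Cd3e or Cldn5 among their leading genes was chosen after seeing the data. So were leaving immunoglobulin genes out of the total and splitting cells by tdTomato or Cdkn2a UMIs.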

Additional observations from a re-analysis of the deposited data

Results flagged for a closer look

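The Tom+ over Tom- log2 ratio of 3 of the 7 genes took opposite signs in different stromal clusters, each with a counting interval off 0, and the difference between the clusters was not tested. Tsc22d3 was at 0.50 (0.31 to 0.68) in the Efhd1-led cluster 6 and at -0.48 (-0.84 to -0.11) in the Gm13305-led cluster 2. Per1 was at 1.01 (0.66 to 1.37) in cluster 2 and at -0.25 (-0.43 to -0.066) in the Vtn-led cluster 7, but at 12 clusters its highest log2 ratio was 0.62. Dusp1 was at 0.18 (0.076 to 0.28) in the Igkc-led cluster 3 and at -0.27 (-0.29 to -0.24) in cluster 7. The clusters come from 1 library per group, so they share the error of those libraries. At 12 clusters Tsc22d3 was higher in Tom+ cells in 4 of 8 clusters, Per1 in 5 and Dusp1 in 2.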

How the results depend on the processing

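Hsd11b1 was the 1 gene of the 7 lower, and none was higher, past the fold limit in all 4 comparisons and under each of their alternatives. The median log2 ratio of the 7 between stromal libraries moved from -0.056 to -0.13 with size factors, 0.061 without immunoglobulin-bearing cells, 0.087 without shared barcodes and 0.11 with clusters weighted equally. Between classes of the Tom- library it moved from -0.33 to -0.49 with size factors, -0.43 with thinned cells, -0.40 without shared barcodes and -0.45 with a stricter upper limit on genes. The causes were not tested. The share of stromal cells with a Hsd11b1 UMI was 48.4% (Tom+) and 64.0% (Tom-) without thinning. Leaving out immunoglobulin-bearing cells removed 1670 of 3263 Tom+ and 127 of 4800 Tom- stromal cells. Without the limit of 5 CPM, 14.2% of genes were higher and 11.4% lower by 1.5-fold between stromal libraries, 13.9% and 6.16% between mesothelial ones, and 21.9% and 11.9% (Tom+) and 18.1% and 14.7% (Tom-) past 2-fold between classes. Equal weight of clusters moved all genes the other way, to 1.39% higher and 1.66% lower. No paired analysis was possible because each group is 1 library, and no replicate could be left out. Counts of 15 UMIs of Hsd11b1 in Tom+ mesothelial cells, and clusters of 27 and 41 cells, limit the precision.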

Other observations

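The reporter and the gene it reads were compared with the 7 genes inside the libraries, a description chosen after the data were seen. The mesothelial cells of the Tom+ library held 780 CPM of tdTomato against 8.25 CPM in the Tom- library. Cdkn2a, the gene of p16, had 4.66 against 5.79 CPM in stromal cells and 12.4 against 8.47 CPM in mesothelial cells. Among thinned Tom+ stromal cells, the 591 cells with a tdTomato UMI held more Hsd11b1 than the 2401 without, a log2 ratio of 0.25 (0.11 to 0.38), and less Nr3c1, at -0.33 (-0.47 to -0.21), so both differences ran against those between the libraries. In the Tom- library, the 373 cells with a tdTomato UMI held less Hsd11b1 than the 3780 without, a log2 ratio of -0.13 (-0.24 to -0.022), and the interval of Nr3c1 spanned 0 at 0.099 (-0.059 to 0.25). The tdTomato split thus took opposite signs in the libraries.

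Cells with a Cdkn2a UMI held less Hsd11b1 than cells without in both libraries. The log2 ratio was -0.76 (-1.27 to -0.29) with 67 such Tom+ cells and -1.26 (-1.57 to -0.96) with 103 such Tom- cells. Nr3c1 was also lower in these cells, at -0.43 in the Tom+ and -0.44 in the Tom- library, whereas Dusp1 was at -0.039 (-0.14 to 0.057) in Tom+ and -0.58 (-0.67 to -0.50) in Tom- cells. In Tom- cells Zbtb16 was lower too, at -0.54 (-1.13 to -0.016). Fkbp5, Tsc22d3 and Per1 were at -0.30, -0.48 and -0.20 there, with intervals that spanned 0. In Tom+ cells Fkbp5, Tsc22d3, Per1 and Zbtb16 were at -0.74, -0.51, 0.0074 and 0.22, and their intervals spanned 0. This split was not made for all genes, so no background stands beside the ratios. The clusters that cells with a Cdkn2a UMI belong to were not taken into account.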
